A study of Mus musculus with 2 samples.

Results

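The non-classical monocyte programme described here is a set of 10 genes, Nr4a1, Ace, Cd300e, Adgre4, Fabp4, Cd36, Tppp3, Ear2, Eno3 and Spn, chosen by symbol from the 26124 genes counted. All 10 were found in the files. The rule takes them by name and uses no measured value, but the list was drawn up with earlier results of these data known. They were followed through the raw counts of classical and non-classical monocytes, type 2 conventional dendritic cells (cDC2) and red pulp macrophages of the mouse spleen, in sickle cell disease (SCD) against a control called wild-type. Non-classical monocytes made up 35.0% of the monocyte-like cells of the wild-type library and 3.48% of those of the SCD library. Within the non-classical cells that were left no member differed by 2-fold or more. Up to 9 did where the border of the type was set otherwise, but no share over all genes was taken there. Within classical monocytes the levels of the members in SCD ranged from 0.0530 of that in wild-type for Tppp3 to 0.546 for Spn. These ratios moved with the processing, Ear2 reaching 1.004 in 1 alternative, and the classical cells of the libraries lay mostly in different sub-clusters.

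Spleen cell suspensions, freed of erythrocytes by lysis and enriched for dendritic cells (DCs) by magnetic removal of other cells, had been profiled by droplet-based single-cell RNA sequencing with unique molecular identifiers (UMIs), which count captured RNA molecules. There was 1 wild-type and 1 SCD mouse, both aged 12 to 16 weeks and untreated. Both were homozygous for Hbatm1Paz, a deletion of mouse alpha globin, and both carried Tg(HBA-HBBs)41Paz, a human transgene that includes sickle beta globin. The wild-type mouse was heterozygous for the beta globin deletion Hbbtm1Tow and hemizygous for the transgene and does not sickle, while the SCD mouse was homozygous for both and does, so the control is no unmodified mouse. With 1 mouse per group no difference below has a replicate check. No test was possible, no p-value is given, and all intervals in brackets are 95% intervals that cover counting error only.

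Before filtering there were 97880318 UMIs from 10845 cells in wild-type and 189688217 UMIs from 13447 cells in SCD. The filters kept 9423 and 10635 cells with median depths of 4884 and 8282 UMIs. The libraries shared 88 cell barcodes, of which 22 were among the kept cells of both. Levels are given as CPM, the UMIs of a gene per 1000000 UMIs summed over all cells of a type in 1 library. Neutrophil markers differed between the libraries within other cell types: the summed level of 12 neutrophil markers was 942 CPM in wild-type and 5426 CPM in SCD non-classical monocytes, and 898 and 4016 CPM in classical monocytes. Whether these counts came from free RNA, doublets or the cells themselves, and their part in the results, was not tested.

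Monocytes leave the bone marrow as classical cells, which carry Ly6C and the chemokine receptor CCR2 and enter tissues. Some of them turn into non-classical cells with little Ly6C, which patrol the inside of vessels, are numerous in the spleen and depend on the nuclear receptor NR4A1 for their formation and survival. The members cover different sides of that state. Nr4a1 encodes the receptor itself. Cd300e, Adgre4 and Spn encode surface receptors, with Spn encoding the sialomucin CD43 by which these cells are often sorted. Cd36 encodes a scavenger receptor and fatty acid transporter, and Fabp4 a fatty acid binding protein. Ace encodes angiotensin converting enzyme, Eno3 the muscle form of the glycolytic enzyme enolase, Ear2 an eosinophil-associated ribonuclease and Tppp3 a tubulin polymerization promoting protein.

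All 10 are protein-coding genes, and on the mouse build GRCm38 they lie apart from each other. Nr4a1 lies at chr15:101254269-101274795 on the plus strand, Ace at chr11:105967945-105989964, Adgre4 at chr17:55749984-55853662, Ear2 at chr14:44102654-44103534 and Eno3 at chr11:70657202-70662513, all on the same strand. On the minus strand lie Cd300e at chr11:115051917-115062177, Fabp4 at chr3:10204088-10208576, Cd36 at chr5:17781690-17888801, Tppp3 at chr8:105467493-105471526 and Spn at chr7:127132232-127137823. Ace, Cd300e and Eno3 share chromosome 11. As the chemistry reads the 3′ ends of transcripts, the last 500 bases of every annotated transcript of each member were searched for windows of 91 bases that recur in a transcript of another gene. None was found for 9 members, and for Ear2 it was 38 of 410 windows (9.27%), shared with Ear1, Ear10 and Ear-ps2. Ear1, Ear6, Ear10 and Ear14 were listed at 0 UMIs in the non-classical monocytes of both libraries.

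To show the sequence at the start of members that varied alike and of one with a motif match, the promoters of 3 of them are shown, those of Nr4a1 and Ace, the pair with the highest correlation below, and that of Adgre4, the only one with a match. They run from 250 bases before to 50 after the RefSeq transcription start on GRCm38.p6 (Nr4a1 chr15:101266596-101266895, Ace chr11:105967698-105967997, Adgre4 chr17:55749734-55750033, all on the plus strand), and capitals mark a match to a searched motif.
Nr4a1: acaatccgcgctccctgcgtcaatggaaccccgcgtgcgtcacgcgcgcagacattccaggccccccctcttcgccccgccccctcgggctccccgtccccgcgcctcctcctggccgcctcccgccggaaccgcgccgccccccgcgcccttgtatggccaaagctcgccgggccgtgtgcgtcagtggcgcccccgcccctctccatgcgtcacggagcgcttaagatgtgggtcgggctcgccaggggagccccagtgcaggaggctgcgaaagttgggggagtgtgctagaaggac
Ace: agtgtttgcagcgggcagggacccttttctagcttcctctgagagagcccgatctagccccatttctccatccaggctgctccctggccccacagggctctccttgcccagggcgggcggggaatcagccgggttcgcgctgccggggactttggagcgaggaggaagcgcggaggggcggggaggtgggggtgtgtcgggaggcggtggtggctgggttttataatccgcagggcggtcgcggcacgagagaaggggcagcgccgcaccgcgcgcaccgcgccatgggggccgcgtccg
Adgre4: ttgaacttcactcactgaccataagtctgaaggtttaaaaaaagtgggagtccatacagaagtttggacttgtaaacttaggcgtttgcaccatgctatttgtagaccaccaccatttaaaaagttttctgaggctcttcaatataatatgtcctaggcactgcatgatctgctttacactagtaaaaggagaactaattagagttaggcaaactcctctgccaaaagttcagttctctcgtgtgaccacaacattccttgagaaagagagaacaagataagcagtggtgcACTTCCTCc
RefSeq promoters were found for 8 of the 10 members, and 4 motifs were searched in them on both strands, the NR4A monomer site NBRE (AAAGGTCA), a PU.1 site (GAGGAAGT), the cyclic AMP response element (TGACGTCA) and a C/EBP site (TTGCGCAA). The PU.1 letters stood in the Adgre4 promoter, 41 bases after the start on the minus strand, and none of the other 3 motifs stood in any of these windows. Of all 32851 promoters of this length, 3.20% held the PU.1 letters, 1.51% the NBRE, 1.79% the cyclic AMP element and 0.183% the C/EBP letters.

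The cell types were rebuilt by clustering without the 10 members, and named from other markers. Non-classical monocytes were named from Treml4, Cx3cr1, Pou2f2, Itgal, Gngt2, Ceacam1, Apoc2 and Hes1. In cells of this type Treml4 stood at 490.5 CPM (wild-type) and 504 CPM (SCD), and the classical marker Ly6c2 was at 49.7 and 31.9 CPM, against 1204 and 1905 CPM in the classical monocytes. The type held 392 wild-type and 50 SCD cells, with median depths of 5940 and 5718 UMIs. Classical monocytes numbered 480 and 734, cDC2 1463 and 240, and red pulp macrophages 290 and 156. A monocyte sub-cluster of 84 wild-type and 95 SCD cells was led by genes of antigen presentation, with H2-Aa and H2-Ab1 foremost. Its marker score was highest for non-classical monocytes (0.417), ahead of classical ones (0.300). It stayed unnamed because 2 of its 10 leading genes were markers of another type, and it is called the H2-Aa sub-cluster here.

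The first comparison asked how many cells of the type that carries the programme were present. All shares are of the cells left after enrichment for DCs, and the part of that step in them was not tested. Of 1121 monocyte-like wild-type cells 35.0% were non-classical (32.2 to 37.8), and of 1438 SCD cells 3.48% (2.59 to 4.56). The share in SCD was 0.0994 of that in wild-type. These shares leave out the H2-Aa sub-cluster, whose best marker score was the non-classical one. The H2-Aa sub-cluster took similar shares, 7.49% in wild-type (6.02 to 9.19) and 6.61% in SCD (5.38 to 8.02), whereas classical cells made up 42.8% in wild-type and 51.0% in SCD, and dividing monocytes 1.69% and 7.93%. The other sub-clusters, 13.02% in wild-type and 30.9% in SCD, stayed unnamed and were led by neutrophil, DC, plasma cell or early myeloid genes such as Mpo and Elane. Of their cells 43.8% in wild-type and 8.76% in SCD were called doublets. The bar plot of the monocyte makeup shows these shares. When the sub-clusters were cut more finely, a choice made after seeing the data, 351 wild-type and 145 SCD cells bore the non-classical name and the ratio of the shares was 0.322. When each library was clustered on its own no SCD cluster took the name.

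**Figure D1:**
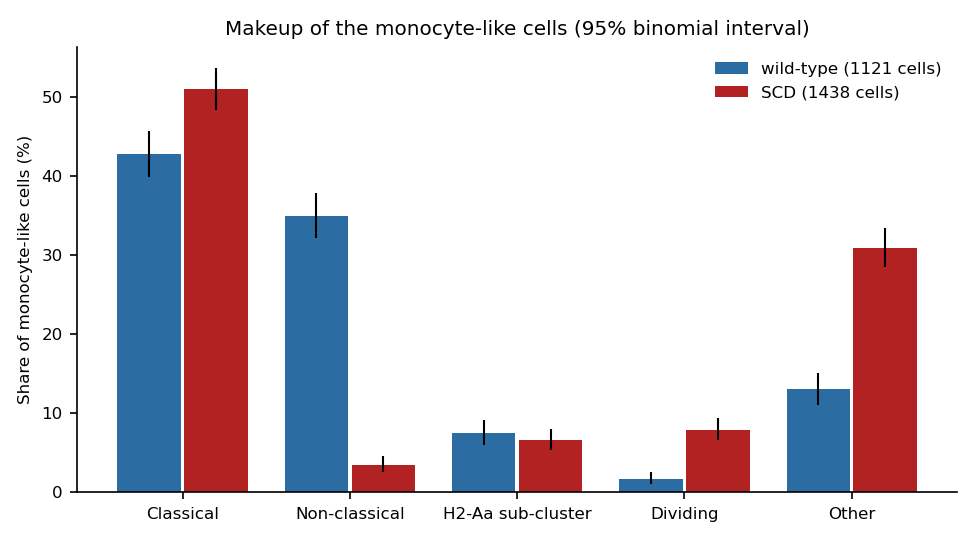
Share of the monocyte-like cells of each library (y axis, percent) that fell into each monocyte type (x axis), wild-type in blue and SCD in red, with exact 95% binomial intervals. The non-classical bar stands at 35.0% in wild-type and at 3.48% in SCD.

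The members are known as genes of these cells, so that their levels against classical monocytes are a description. In wild-type all 10 members were at least 2-fold higher in non-classical than in classical monocytes, where 9.12% of 3675 genes were, and in SCD again all 10, where 18.8% of 3422 genes were. In classical cells 4 of the members in wild-type and 9 in SCD were under 50 CPM and passed the minimum through the non-classical side alone. The steepest was Fabp4, at 4.11 CPM in classical and 371 CPM in non-classical wild-type cells, a ratio of 90.2 (58.7 to 146). It ranked 2 among all genes of that comparison in wild-type and 1 in SCD. Cd300e (40.2), Cd36 (39.6) and Eno3 (36.9) followed with like ratios in wild-type. The least steep was Tppp3, at 276 CPM in classical and 602 CPM in non-classical wild-type cells, a ratio of 2.18 (2.03 to 2.34). It was 1.95 with no upper limit on detected genes and with median-of-ratios scaling, which leaves 9 members past 2-fold. In SCD the ratio for Tppp3 was 23.1, since its classical level there was 14.6 CPM. Nr4a1 was 4.64-fold higher in the non-classical cells of wild-type (4.27 to 5.05) and 16.8-fold higher in those of SCD (14.1 to 20.03).

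The members were found in the same cells. To compare libraries of different depth, each cell was thinned to 1000 UMIs, which left out 4 wild-type and no SCD non-classical cells. A thinned non-classical cell held UMIs of a median of 5 of the 10 members in wild-type and of 4 in SCD, and at least 3 members in 89.2% (85.7 to 92.1) and 74.0% (59.7 to 85.4) of cells. In the H2-Aa sub-cluster 28.6% of wild-type and 25.3% of SCD cells held 3 or more members. Among classical monocytes it was 5.86% (3.93 to 8.36) in wild-type and 0.272% (0.0330 to 0.981) in SCD, and among 4327 wild-type and 7172 SCD neutrophils no cell. Cells with 3 or more members made up 4.96% of all thinned wild-type and 0.776% of all thinned SCD cells. In wild-type 75.2% of the 460 such cells were non-classical monocytes. Of the 82 in SCD, 45.1% were non-classical monocytes and 29.3% belonged to the H2-Aa sub-cluster.

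**Figure D2:**
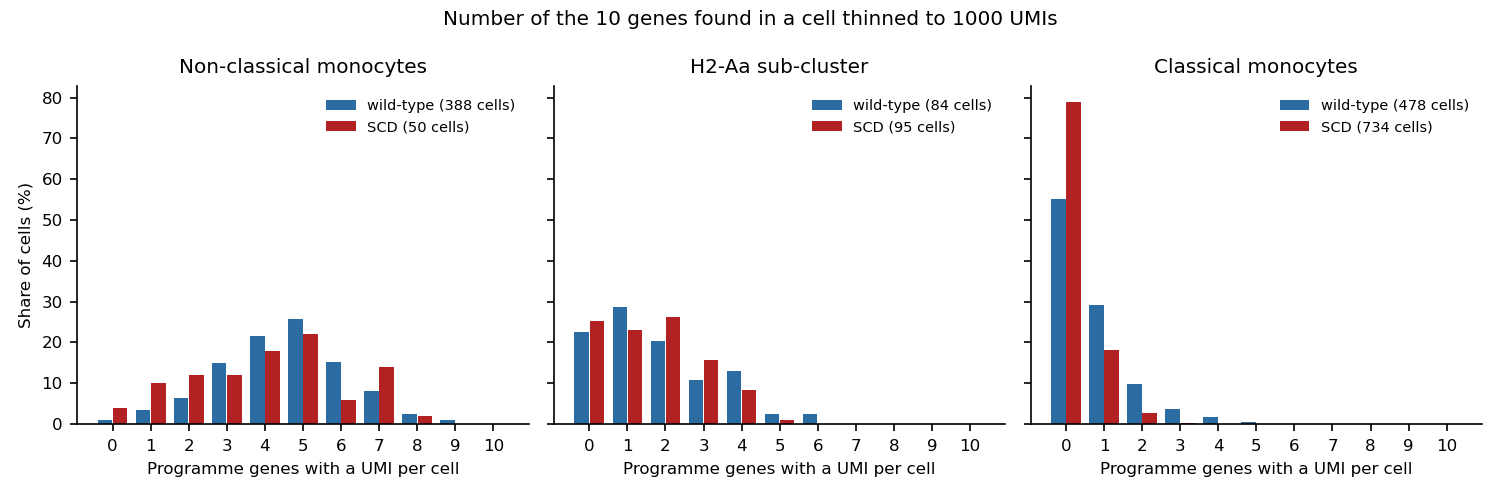
Share of cells (y axis, percent) by the number of the 10 programme genes with at least 1 UMI after thinning each cell to 1000 UMIs (x axis), in non-classical monocytes, the H2-Aa sub-cluster and classical monocytes, wild-type in blue and SCD in red. Non-classical cells centre on 4 to 5 genes in both libraries, and classical cells hold none in 55.0% of wild-type and 78.9% of SCD cells.

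Within non-classical monocytes the levels lay close together. Of the 10 members none was at least 2-fold lower in SCD, as 2.08% of 3512 genes were, and none at least 2-fold higher, as 2.76% were. The median log2 ratio of SCD over wild-type was -0.11 over the members and -0.03 over all genes that passed the minimum of 50 CPM and 20 UMIs in 1 of the libraries.

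Nr4a1 was at 716 CPM in wild-type (684 to 749) and at 666 CPM in SCD (579 to 763), a ratio of 0.931 (0.803 to 1.07). The interval of that ratio spans equality. Among the surface receptors, Cd300e was at 489 CPM in wild-type (462 to 516) and 507 CPM in SCD (431 to 592), Adgre4 at 791 (758 to 826) and 759 CPM (665 to 861), and Spn at 753 (720.0 to 787) and 669 CPM (582 to 766). For all 3 receptors the intervals of the ratios span equality. The lipid genes were level or higher. Fabp4 stood at 371 CPM in wild-type and 379 CPM in SCD, and Cd36 at 605 (576 to 636) and 749 CPM (656 to 851), a ratio of 1.24 (1.07 to 1.42). Ear2 was at 965 and 893 CPM and Eno3 at 506 and 437 CPM, and the intervals of both ratios again span equality.

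For Ace and Tppp3 the interval of the ratio lay below equality, as that of Cd36 lay above it. The share of all genes whose interval leaves out equality was not taken. Over the alternatives the ratio of Cd36 ranged from 0.280 to 1.267, so that its direction turned, and that of Ace from 0.3885 to 0.697. Ace was the most abundant member in wild-type, at 1288 CPM (1245 to 1332), and stood at 877 CPM in SCD (776 to 987), a ratio of 0.681 (0.600 to 0.770). Tppp3 was at 602 CPM in wild-type (573 to 632) and 338 CPM in SCD (277 to 409), a ratio of 0.561 (0.457 to 0.684). Neither reached 2-fold. The share of thinned cells with a UMI gave the same order, 68.3% and 54.0% for Ace and 38.4% and 24.0% for Tppp3, against at most 1.57% for either gene in neutrophils and plasmacytoid DCs, which served as background. Those background types had medians of 2453 and 6952 UMIs (neutrophils) and of 11137 and 8989 UMIs (plasmacytoid DCs) in wild-type and SCD. In thinned non-classical cells the share was also lower in SCD for Nr4a1 (51.0% and 36.0%), Cd300e, Adgre4, Eno3 and Spn. It was higher for Fabp4 (26.0% and 36.0%), Cd36 and Ear2. Without thinning, a UMI of Ace was found in 98.7% of wild-type and 94.0% of SCD non-classical cells, and one of Tppp3 in 75.8% and 38%.

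The level within non-classical monocytes depended on where the border of the type was drawn in SCD. With finer sub-clusters, a cut chosen after seeing the data, the type held 145 SCD cells, the median log2 ratio of the members was -1.55 and 9 of 10 members were at least 2-fold lower. With no upper limit on detected genes it held 140 SCD cells, the median was -1.23 and 7 members were at least 2-fold lower. With each cell named by its own marker score it held 132, the median was -0.74 and 2 members were at least 2-fold lower. The share of all genes past 2-fold was not taken in these alternatives, so that the counts are a description.

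**Figure D3:**
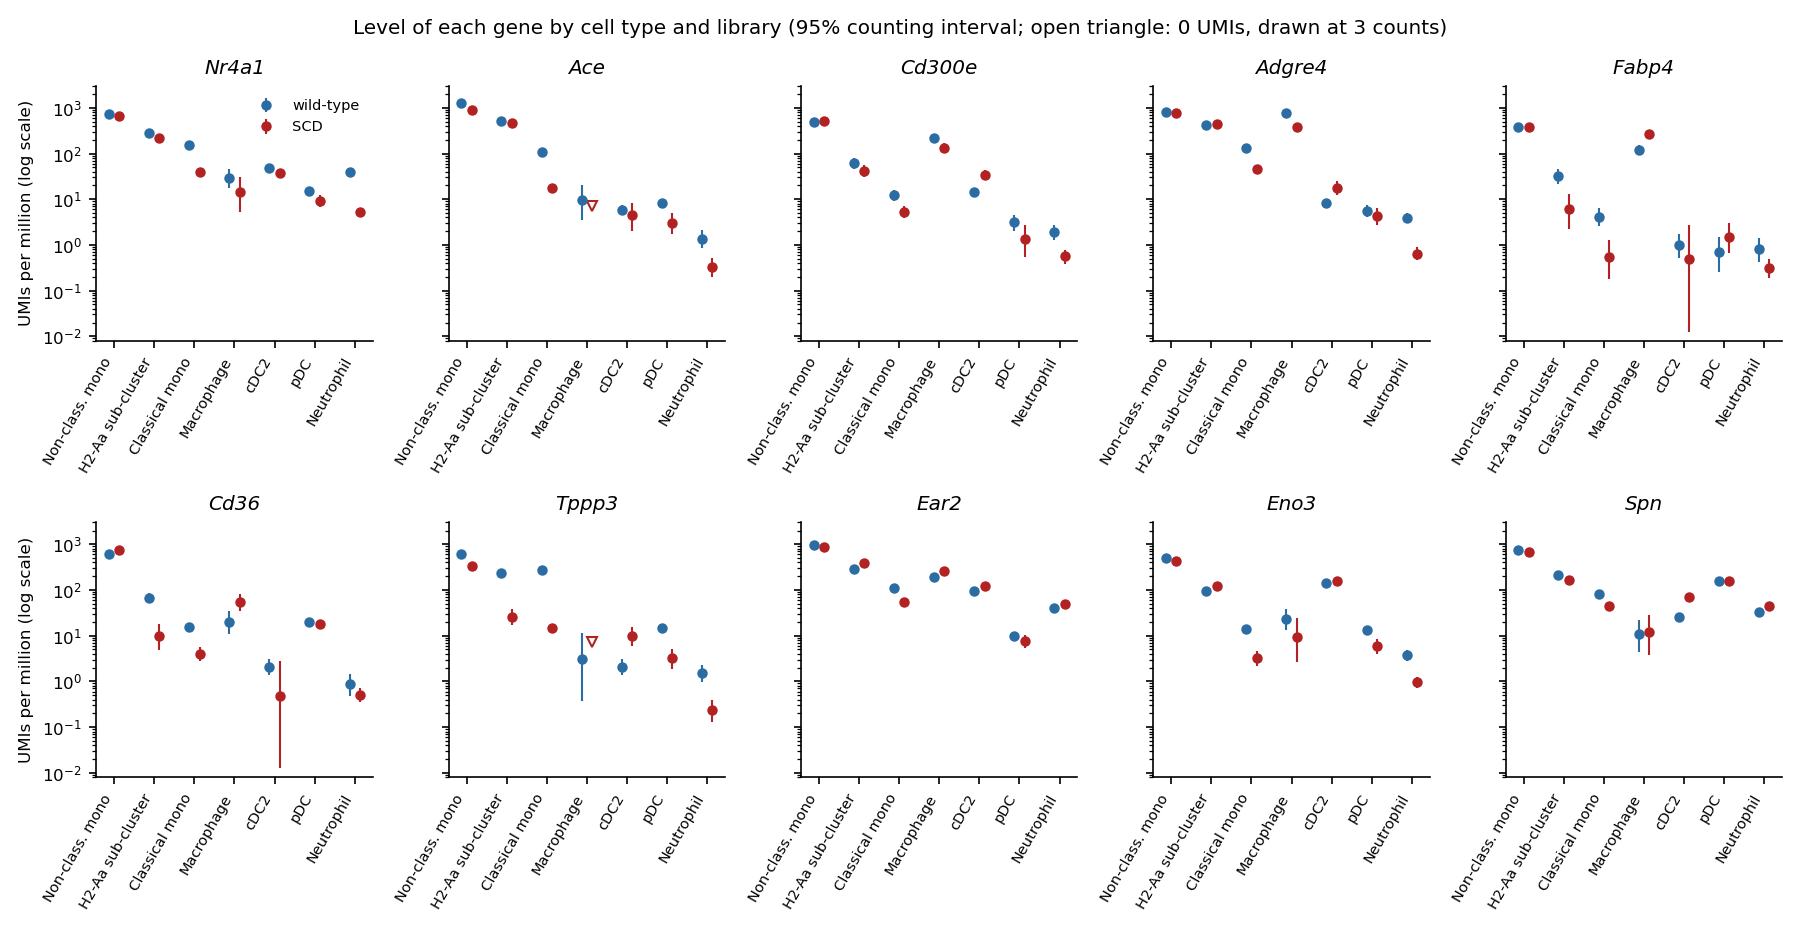
Level of each programme gene in CPM (y axis, log scale) by cell type (x axis), wild-type in blue and SCD in red, with exact 95% Poisson intervals; open triangles mark 0 UMIs, drawn at 3 counts. For Nr4a1 the non-classical pair lies at 716 and 666 CPM and the classical pair at 154 and 39.6 CPM, and for Tppp3 they lie at 602 and 338 CPM and at 276 and 14.6 CPM.

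Other genes of the non-classical state were read in the non-classical monocytes of the main setting. Of 15 genes known from these cells 14 passed the minimum in non-classical monocytes and none was 2-fold higher or lower, with a median log2 ratio of -0.11. Bcl2, the survival factor, had the highest ratio (1.25), at 143 and 179 CPM, and Hes1, a Notch target, the lowest (0.684). Gngt2 and Itgal, an integrin chain used for crawling on vessel walls, were the most abundant, at 2054 and 1795 CPM and at 1843 and 1521 CPM. As 10 of these 15 also served as naming markers of some type, their levels are in part a product of the naming. Of 10 regulators of the non-classical fate 8 passed, and none was 2-fold higher or lower. Cebpb, a transcription factor upstream of Nr4a1, was at 2247 and 2190 CPM and Pou2f2 at 1713 and 1320 CPM. Klf2, a factor that also acts upstream of Nr4a1, had the lowest ratio of them, 0.564 (0.483 to 0.655), and Irf8 the highest, 1.13.

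Of 10 lipid handling genes 7 passed in non-classical monocytes, 2 were at least 2-fold higher in SCD, where 2.76% of all genes were, none was lower and 5 did not reach 2-fold, with a median log2 ratio of 0.62. Both of the higher genes passed the minimum through their SCD level alone. Lpl, lipoprotein lipase, was at 28.5 CPM in wild-type and 163 CPM in SCD, a ratio of 5.71 (3.92 to 8.26). Fabp5, a relative of Fabp4, was at 24.7 and 92.4 CPM, a ratio of 3.75 (2.33 to 5.89). Plin2, a coat protein of lipid droplets, had the lowest ratio (0.816). Of 11 red pulp macrophage markers 3 passed here, and all 3 were at least 2-fold higher in SCD, Slc40a1 having passed through its SCD level alone. Hmox1, heme oxygenase, was at 599 and 2474 CPM, Spic, a transcription factor of red pulp macrophages, at 63.8 and 322 CPM, and Slc40a1, the iron exporter ferroportin, at 12.5 and 210.4 CPM. The defining macrophage genes Vcam1, C1qa, C1qb, C1qc, Mrc1, Cd5l and Cd163 were all at 0 UMIs in the 50 SCD cells, where 3 counts would be 9.56 CPM. In the wild-type cells they were at 0 to 7.97 CPM. The part of macrophage RNA in these levels was not tested.

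The second comparison was made within classical monocytes, where the programme is low. In these cells 6 members passed the minimum and 5 of them were at least 2-fold lower in SCD, where 2.48% of 3225 genes were. All but Ear2 passed through their wild-type level alone, which favours lower ratios, so that the count and the median are a description and the values of all 10 members follow. None was at least 2-fold higher, where 0.961% were. The median log2 ratio was -1.74 over the 6 members and -0.08 over all genes.

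Tppp3 differed most, at 276 CPM in wild-type (262 to 291) and 14.6 CPM in SCD (12.3 to 17.3), which is 18.9-fold lower (15.8 to 22.7). Ace was at 108 CPM (99.5 to 118) and 17.4 CPM (14.8 to 20.3), which is 6.23-fold lower, and Nr4a1 at 154 CPM (144 to 165) and 39.6 CPM (35.6 to 43.8), which is 3.90-fold lower. None of these intervals overlaps between the libraries, but the share of all genes for which that holds was not taken. Adgre4 was at 129 and 45.2 CPM, a ratio of 0.351 (0.309 to 0.397). Ear2 was at 112 and 54.8 CPM, a ratio of 0.489 (0.433 to 0.552) that ranged from 0.393 to 1.004 over the alternatives and was at its highest with at least 1000 detected genes, and Spn at 82.1 and 44.8 CPM, a ratio of 0.546 (0.475 to 0.627). The remaining members were under the minimum in both libraries: Cd300e was at 12.1 and 5.24 CPM, Fabp4 at 4.11 and 0.546 CPM, Cd36 at 15.3 and 4.04 CPM and Eno3 at 13.7 and 3.28 CPM. All 10 were thus lower in SCD, but these last 4 rest on 5 to 78 UMIs per library. The share of all genes that were lower by any amount was not taken. Of the 37 SCD UMIs of Cd36 20 lay in 5 cells, and the other 729 SCD cells were at 1.87 CPM.

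Different sub-clusters held the classical monocytes of each library. One, led by Fos, comprised 463 wild-type and 5 SCD cells, and another, led by Wfdc17 and Vcan, held 17 and 729. The 17 wild-type cells in the Vcan sub-cluster had 49.4 CPM of Nr4a1, 32.9 CPM of Ace and 32.9 CPM of Tppp3, which rest on 9, 6 and 6 UMIs. The SCD cells beside them had 39.4, 17.5 and 12.5 CPM. In the Fos sub-cluster the wild-type cells had 158, 111 and 285 CPM of these genes, and the 5 SCD cells had 69.8 CPM of Nr4a1 (4 UMIs), no UMI of Ace and 349 CPM of Tppp3 (20 UMIs). As the clusters were made from the expression of the same cells, these values are a description. Nr4a1 is also an immediate early gene, one of those that respond within minutes to many signals, tissue handling included. Of 13 other immediate early genes 8 passed in classical monocytes, and 5 were at least 2-fold lower in SCD, where 2.48% of 3225 genes were. These were Dusp1, a phosphatase, at 91.5 and 4.15 CPM, Fos at 241 and 23.4 CPM, Jun at 64.8 and 25.3 CPM, Junb at 309 and 145 CPM and Zfp36, which destabilises cytokine transcripts, at 253 and 124 CPM. Dusp1, Fos and Jun passed through their wild-type level alone, which favours lower ratios, so that the count is a description. In non-classical monocytes 7 passed and 1, Fos, was at least 2-fold lower (50.5 and 15.9 CPM), where 2.08% of 3512 genes were. There too Fos passed through its wild-type level alone. Lower levels were not limited to classical monocytes. In the H2-Aa sub-cluster 4 of 8 were at least 2-fold lower in SCD, with no share over all genes taken. Among red pulp macrophages it was 4 of 5, where 7.11% of 3866 genes were. In cDC2 it was none of 8, where 0.46% of 3476 genes were. These counts too are a description. The part of the immediate early genes in the level of Nr4a1 was not tested.

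Of 12 classical monocyte genes 10 passed in the same cells and none reached 2-fold, with a median log2 ratio of 0.24. Ly6c2 was at 1204 and 1905 CPM (ratio 1.58), Plac8, the most abundant, at 3493 and 3940.0 CPM (1.13) and Fn1, fibronectin, at 2424 and 2226 CPM (0.918). Of the regulators Pou2f2 was the 1 of 8 at least 2-fold lower, at 485 and 221 CPM, and Cebpb was at 979 and 620 CPM. Of the other non-classical genes Itgal was the 1 of 8 at least 2-fold lower, at 388 and 136 CPM. The size of the difference in classical monocytes moved with the processing. The median log2 ratio of the members lay between -1.94 and -0.75 over the alternatives. Between 2 and 9 members were at least 2-fold lower, with no share over all genes taken there. Tppp3 and Nr4a1 were at least 2-fold lower in every alternative, with ratios of 0.0471 to 0.117 and 0.248 to 0.369. Ace ranged from 0.140 to 0.567 over the 11 alternatives that gave it a value, and Adgre4 from 0.303 to 0.678. Both thus lost the 2-fold call in some alternatives.

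**Figure D4:**
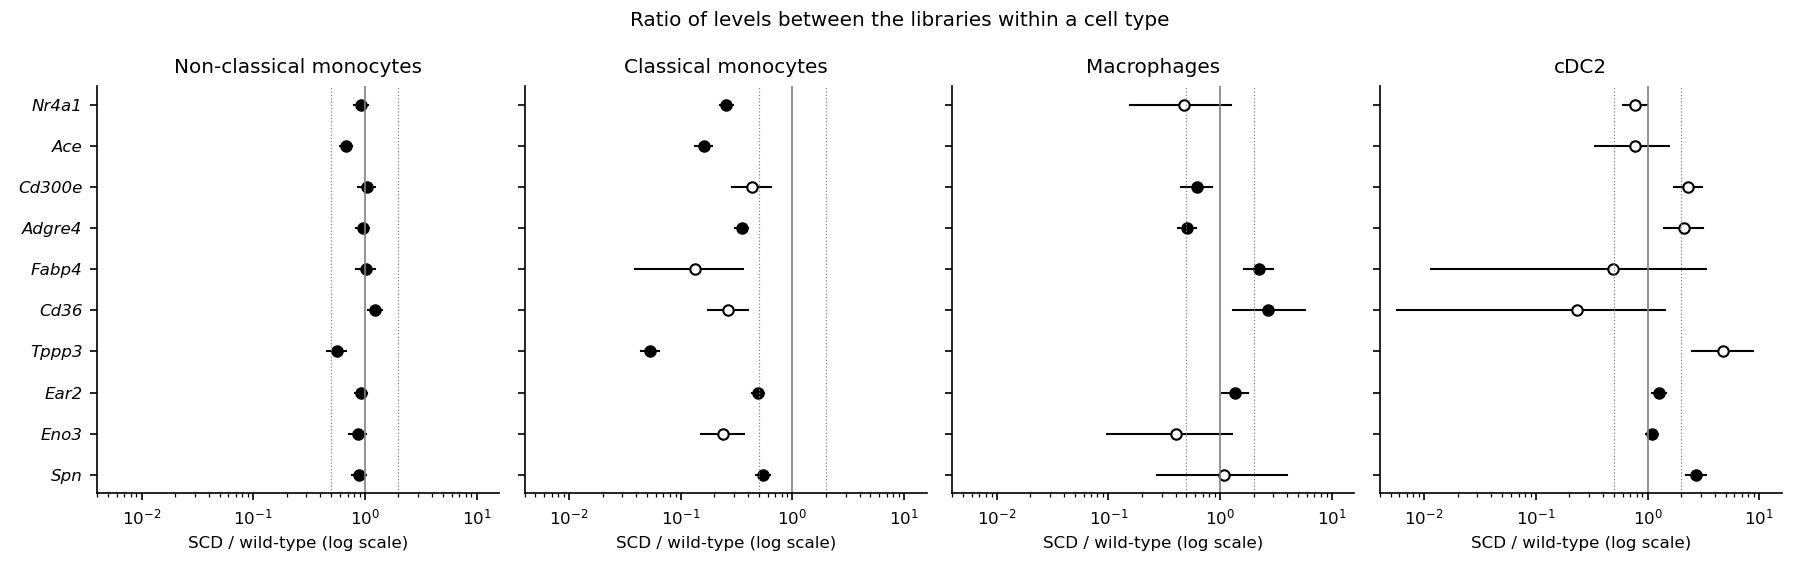
Ratio of the level in SCD over that in wild-type (x axis, log scale) for each programme gene (y axis) in 4 cell types, with 95% counting intervals; filled points passed the minimum of 50 CPM and 20 UMIs, open points did not, genes at 0 UMIs in a library are left out, and dotted lines mark 2-fold. The 10 points of the non-classical panel lie between 0.561 and 1.24, and those of the classical panel lie between 0.0530 and 0.546.

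In wild-type the H2-Aa sub-cluster stood between classical and non-classical monocytes for 9 of the 10 members, and for Tppp3 it stood below both. There Ace was at 519 CPM, Adgre4 at 421 CPM, Nr4a1 at 286 CPM, Ear2 at 284 CPM and Spn at 212 CPM. In SCD these were at 476, 443, 222, 392 and 168 CPM, with ratios between 0.778 for Nr4a1 and 1.38 for Ear2. Tppp3, however, was at 240.0 CPM in wild-type (209 to 274) and 25.9 CPM in SCD (16.9 to 37.99), and Cd36 at 67.3 (51.3 to 86.6) and 9.97 CPM (4.78 to 18.3). Fabp4 was at 32.5 and 5.98 CPM. Tppp3 was thus lower in SCD in each monocyte type with at least 50 cells per library. In a sub-cluster led by F13a1 and Clec10a, which was clustered with the DCs, it was at 211 and 26.4 CPM. The monocyte genes Fn1, Ccr2 and Cx3cr1 were also among the leading genes of that sub-cluster, so it is not taken as a DC type here.

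Summed over all monocyte-like cells, every member was lower in SCD, though the share of all genes that were lower was not taken. Fabp4 was at 103 CPM in wild-type and 7.16 CPM in SCD, Cd36 at 174 and 14.8 CPM, Tppp3 at 349 and 21.3 CPM, and Spn, the least different, at 280.2 and 95.4 CPM. The ratios ran from 0.0612 for Tppp3 to 0.340 for Spn. When the SCD levels of each monocyte type were instead weighted by the share of UMIs that the type had in wild-type, Cd36 came to 1.06, Cd300e to 0.921, Fabp4 to 0.901, Ear2 to 0.845, Eno3 to 0.799, Adgre4 to 0.797 and Spn to 0.787. Nr4a1 came to 0.686, Ace to 0.599 and Tppp3 to 0.271, so that 9 of the 10 were below 1, again with no share over all genes. These values moved with the border of the non-classical type: over the alternatives Cd36 ranged from 0.251 to 1.18, Cd300e from 0.2605 to 1.01, Adgre4 from 0.484 to 0.917 and Tppp3 from 0.0970 to 0.311, with the lowest value of each at the finer sub-clusters. In the sums over all monocytes alone, fewer cells of a type and less RNA per cell cannot be told apart.

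**Figure D5:**
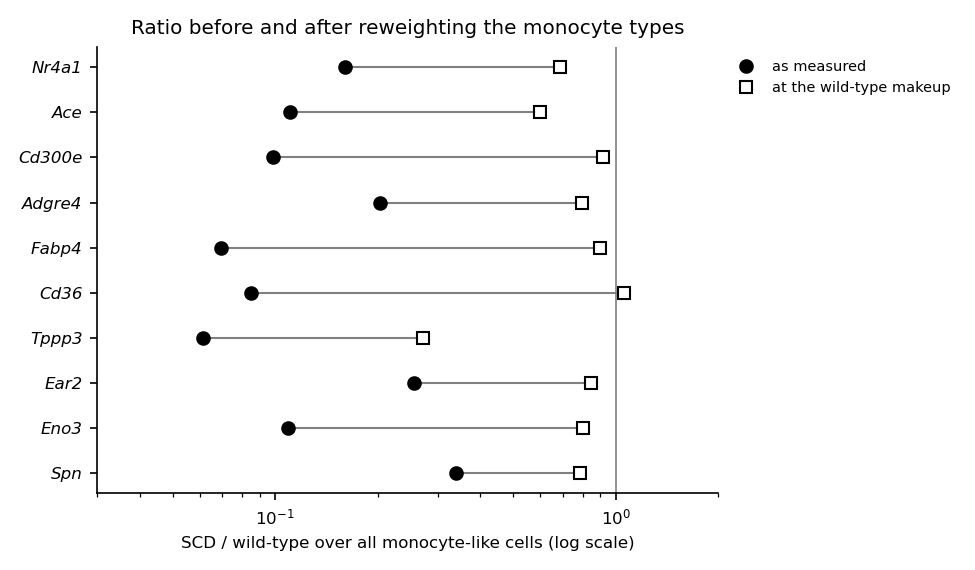
Ratio of SCD over wild-type summed over all monocyte-like cells (x axis, log scale) for each programme gene (y axis), as measured (filled circles) and with the SCD levels of each monocyte type weighted by the wild-type makeup (open squares). Cd36 moves from 0.0851 to 1.06, while Tppp3 moves from 0.0612 to 0.271.

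In red pulp macrophages, which clear aged erythrocytes, 5 members passed the minimum. Of these 2 were at least 2-fold higher in SCD, where 3.54% of 3866 genes were, and none at least 2-fold lower, where 7.11% were. Cd36, 1 of these 2, passed through its SCD level alone, so that the count is a description. The higher ones were the lipid genes. Fabp4 was at 122 CPM in wild-type (96.6 to 153) and 271 CPM in SCD (224 to 326), a ratio of 2.22 (1.65 to 3.002). Cd36 was at 20.4 and 54.8 CPM, a ratio of 2.69 (1.31 to 5.78) that rests on 13 and 23 UMIs. Of the surface receptors Adgre4 was at 761 CPM (695 to 832) and 386 CPM (329 to 449.9), a ratio of 0.507 (0.421 to 0.606), and Cd300e at 215 and 133 CPM, a ratio of 0.621 (0.447 to 0.854). The ratio of Adgre4 ranged from 0.386 to 0.528 over the alternatives, and 1 or 2 members were at least 2-fold lower in 7 of 17. Ear2 was at 189.6 and 257 CPM. Ace, Tppp3, Nr4a1, Eno3 and Spn were under the minimum. Ace and Tppp3 had no UMI in the SCD macrophages, with an interval that ends at 8.78 CPM. Of 10 lipid handling genes 8 passed and 2, Lpl (298 and 1267 CPM) and Abca1 (227 and 455 CPM), were at least 2-fold higher. The macrophages were shallow, with medians of 1334.5 and 1543.5 UMIs. Markers of this type were at 29557 CPM in sum in wild-type and 38761 CPM in SCD. With no mitochondrial and ribosomal filter none of the members was at least 2-fold higher and 2 were at least 2-fold lower in these cells, and the median log2 ratio was -0.57 in place of 0.44.

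In cDC2, which present antigen to helper T cells, 3 members passed, and 1, Spn, was at least 2-fold higher in SCD, where 2.1% of 3476 genes were. Spn passed through its SCD level alone, so that this count is a description. None was at least 2-fold lower, where 0.46% were. Spn was at 25.5 CPM in wild-type (22.7 to 28.5) and 69.7 CPM in SCD (58.7 to 82.2), a ratio of 2.74 (2.23 to 3.35). In 6 of 17 alternatives no member was at least 2-fold higher, in 5 of them because Spn was under the minimum, and the median log2 ratio of the members (0.34) was -0.19 with cells named by marker score. Spn was highest in the dividing sub-cluster, which held 157 wild-type and 38 SCD cells, at 61.9 and 188 CPM, and 100 of its 142 UMIs in SCD cDC2 lay there. In the sub-cluster led by Mmp12, with 1299 of the wild-type cells, it was at 19.6 CPM, and in the one with 184 of the SCD cells at 26.1 CPM. Ear2 was at 97.3 and 123 CPM and Eno3 at 144 and 158 CPM, ratios of 1.27 (1.10 to 1.45) and 1.09 (0.969 to 1.23). Monocyte genes also differed in these cells, with Ly6c2 at 6.43 and 74.7 CPM, Ccr2 at 12.5 and 202 CPM and Cx3cr1 at 16.5 and 68.8 CPM. Their part in the levels of the members was not tested. The 7 members under the minimum were all below 50 CPM in both libraries. Of these Cd300e (ratio 2.31, 1.72 to 3.06), Adgre4 (2.12, 1.40 to 3.13) and Tppp3 were higher in SCD. Nr4a1 was lower (0.775, 0.602 to 0.985), and Ace, Fabp4 and Cd36 were lower with intervals that span equality. With called doublets removed, only 40 SCD cells kept the cDC2 name.

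The members were counted outside monocytes as well. In wild-type 76.5% of the UMIs of Fabp4, 64.3% of those of Ace, 59.1% of those of Cd300e and 57.7% of those of Cd36 lay in non-classical monocytes. For Eno3 it was 23.9%, with 31.0% in cDC2 and 29.7% in mature DCs, where it stood at 409 CPM. In SCD the non-classical monocytes held 37.5% of the UMIs of Fabp4 and 20.8% of those of Cd36, with macrophages close behind for Fabp4 at 36.0%. Other types held the largest share of every member in SCD but Fabp4 and Cd300e. Type 1 conventional DCs held 47.7% of Cd36, the H2-Aa sub-cluster 40.6% of Ace and 24.8% of Adgre4, and neutrophils 54.3% of Ear2 and 40.6% of Spn. Classical monocytes held 23.0% of Nr4a1, cDC2 30.6% of Eno3 and the other unnamed monocyte sub-clusters 29.3% of Tppp3. In the order of levels non-classical monocytes stood first for every member in both libraries among the types with a name and the H2-Aa and Clec10a sub-clusters. The interval of the non-classical level overlapped that of the next type for Adgre4 in wild-type, where macrophages stood at 761 against 791 CPM. For Fabp4 in SCD the intervals overlapped at their ends only, with macrophages at 271 CPM (224 to 326) against 379 CPM (314 to 454).

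Across 47 clusters by library with at least 50 cells, the log2 levels of 2 members correlated at most with Pearson r = 0.867 (Nr4a1 and Ace) and at least with 0.229 (Eno3 and Spn). These clusters share 2 libraries and their depth, and the values are a description. Of 7195 genes, those most like each member were Ace, Metrnl and Krt80 for Nr4a1, Smpdl3b, Zfyve9 and Cx3cr1 for Ace, and Smpdl3b, Ace and S1pr5 for Tppp3. Lilra5 and Pparg, which encodes a lipid-sensing nuclear receptor, came first for both Cd300e (r = 0.878 and 0.876) and Fabp4 (both 0.887). For Adgre4 they were Hpgd, Lrp1 and Itgb5, with r up to 0.922. Cd36 (Cyth3, 0.792), Ear2 (Diaph2, 0.772), Eno3 (Bcl2a1d, 0.909) and Spn (Arhgef10l, 0.789) had other genes as their nearest.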

How the data were processed

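Spleen cells of 1 wild-type and 1 SCD mouse, enriched for DCs, were counted with 10x Genomics 3′ v3.1 chemistry. The authors deposited raw UMI counts per gene and cell; the submitters' processing notes name Cell Ranger 4.0.0, Seurat 3.2.3, Scanpy 1.6.0, R 4.4 and the build GRCm38. Cells were kept if 500 to 5000 genes were detected and if mitochondrial genes made up under 15% and ribosomal genes under 30% of the counts. Both libraries were normalised together with scran 1.30.0 (R 4.3.3), and the 2000 most variable genes without the 10 members gave 30 components and 15 neighbours for Leiden clustering (Python 3.11.15, scanpy 1.11.5, igraph 0.11.9) at resolution 1. Clusters were named by marker score. No batch correction was made. Doublets were called by Scrublet, 444 in wild-type and 266 in SCD, and kept.

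Monocytes and DCs were clustered again at resolution 0.5. That resolution, the margin of 0.05 between scores and the rule that other types' markers leave a cluster unnamed were set after the clusters had been seen. The members and gene lists were chosen with earlier results of these data known. UMIs were then summed per type and library. Exact Poisson and binomial (Clopper-Pearson) intervals and conditional binomial intervals of ratios (scipy 1.17.1) cover counting error only, since UMIs of 1 mouse are no replicates. Members with at least 50 CPM and 20 UMIs in 1 library entered medians and counts of genes past 2-fold. All 10 members are named, and of each list the highest and lowest ratio, the 2 most abundant genes and any list members past 2-fold where these were few. A gene that this rule would name among the classical monocyte genes is not reported here. The ratio computation was tested on simulated data. Gene positions are those of GENCODE on GRCm38, likeness used log2(CPM + 5), and the alternatives are given at the end.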

Additional observations from a re-analysis of the deposited data

Results flagged for a closer look

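Ear2 and Spn were each higher in SCD in some cell types and lower in others. Ear2 was higher in cDC2 (ratio 1.267) and in red pulp macrophages (1.357) and lower in classical monocytes (0.4888). Spn was higher in cDC2 (2.738) and lower in classical monocytes (0.5459). In cDC2 the dividing sub-cluster held 100 of the 142 SCD UMIs of Spn, its level in the main sub-clusters was 19.6 CPM in wild-type and 26.1 CPM in SCD, and no member was at least 2-fold higher in 6 of 17 alternatives. With 1 mouse per group the difference between types was not tested. For Ear2 the classical value depended on the filter on detected genes, and 38 of the 410 windows searched recur in Ear1, Ear10 or Ear-ps2. The part of these windows in its counts was not tested.

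Cells over the upper limit of 5000 detected genes were left out of the comparisons, except in the alternative with no upper limit. In the 1436 such SCD cells Ear2 was at 8.789 CPM, against 6.66 CPM in the 517 such wild-type cells.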

How the results depend on the processing

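No paired analysis was possible because there was only 1 mouse per genotype, and no result has a replicate check. The median log2 ratio of the members in classical monocytes (-1.74) was -1.03 without the mitochondrial and ribosomal filter, -1.06 with called doublets removed, -0.98 with total count normalization, -0.75 with the members among the clustering genes, -0.95 at resolution 2, -1.52 with each library clustered on its own, -1.08 with cells named singly by marker score, -1.37 with a pseudocount of 20 CPM and -1.94 with no minimum. The number at least 2-fold lower there (5) was 3 with at least 1000 detected genes, without the mitochondrial and ribosomal filter, without doublets and by marker score. It was 2 with total count normalization, the members included or resolution 2, and 9 with no minimum. Ear2 in these cells was at 1.004 with at least 1000 detected genes. In non-classical monocytes the median (-0.11) was -1.23 with no upper limit on genes, -0.74 by marker score and -1.55 at sub-cluster resolution 1, with 7, 2 and 9 members at least 2-fold lower in place of 0. The ratio of non-classical shares (0.0994) was 0.179 with no upper limit, 0.135 without the mitochondrial filter, 0.190 (0.1895) by marker score and 0.322 at sub-cluster resolution 1. Clustering each library on its own named no SCD non-classical cell, so it gave no value there. In macrophages the median (0.44) was -0.57 without the mitochondrial and ribosomal filter. The number higher (2) was then 0, and 1 with a pseudocount of 20 CPM. The number lower (0) was 2 without the mitochondrial filter and 1 with at least 1000 genes, without doublets, with total count normalization, at resolution 2, by separate clustering and by marker score. In cDC2 the median (0.34) was 1.95 without doublets, 1.08 with total count normalization and -0.19 by marker score. The number higher there (1) was 0 with at least 1000 genes, no upper limit, the members included, resolution 2, a pseudocount of 20 CPM or sub-cluster resolution 1, 3 without doublets or with total count normalization, and 4 with no minimum, where 1 was lower in place of 0. The cDC2 values without doublets and with total count normalization rest on 40 and 43 SCD cells. The cause of these shifts was not tested, and the share of all genes past 2-fold was not taken in the alternatives. Sub-cluster resolution 1 and leaving out the shared barcodes were chosen after seeing the data. The 50 SCD non-classical cells limit every value within that type.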

Other observations

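Outside the monocytes, Nr4a1 was at 40.2 CPM in wild-type and 5.15 CPM in SCD neutrophils, whereas Ear2 (40.0 and 50.3 CPM) and Spn (33.6 and 44.1 CPM) were higher in those of SCD. The neutrophils of the libraries lay mostly in different clusters, so that these values are a description. A cluster led by Il1b held 3653 wild-type and 653 SCD cells, and another led by Thbs1 and Mmp8 held 281 and 2339. Cd36 in type 1 conventional DCs stood at 185 and 186 CPM and Spn in plasmacytoid DCs at 161 and 159 CPM. In mature DCs, which carry processed antigen to T cells, Eno3 was at 409 CPM in wild-type and 281 CPM in SCD. Tppp3 was at 14.5 and 3.22 CPM in plasmacytoid DCs and at 21.4 and 5.17 CPM in type 1 conventional DCs, but at 2.09 and 9.82 CPM in cDC2, all under the minimum of 50 CPM.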
